A study of Mus musculus with 12 samples.

Results

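The 10 genes described here are the immediate early genes Fos, Fosb, Junb, Npas4, Egr1, Egr2, Arc, Nr4a1, Nr4a2 and Nr4a3. They were chosen by name as genes that neuronal activity switches on, with values of these same libraries already known, and all 10 were found by symbol among the 49671 genes of the deposited count table. Their levels and fold changes are therefore given as a description, with no test. The study sequenced RNA of 12 mouse brain samples, fixed in formalin and embedded in paraffin, in 4 groups of 3, named by tumour genotype as IDH1_R132H (isocitrate dehydrogenase 1 with the mutation frequent in human glioma), IDH1WT (the enzyme without it), PDGFA (platelet-derived growth factor A) and normal brain. The N::TVA mouse genotype carries Cdkn2a and Atrx among its floxed alleles in all 4 groups, yet the normal brains came from TVA-negative mice. How these statements fit together is not settled here. TVA, an avian virus receptor, makes mouse cells open to RCAS vectors. The labels give no age, sex, batch or brain region, leave unstated if PDGFA was also given to the IDH1 tumours, and do not say that each sample is a separate animal, so p-values measure the spread between these samples.

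Immediate early genes are transcribed within minutes of a stimulus without new protein synthesis. In neurons, calcium entry through glutamate receptors and voltage-gated channels activates kinases that act on CREB and on serum response factor, which are already bound near these genes, and the transcripts then decay quickly. Growth factors induce many of the same genes in dividing cells. Most of the products are transcription factors that switch on a later set of genes, and Arc is a synaptic protein.

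The promoters of these genes are shown because the calcium signal reaches them through CREB, whose binding element carries the core TGACG. RefSeq promoter windows on GRCm38.p6 were matched for 8 of the 10 genes, all but Egr1 and Arc, and the 250 bases before each start were searched on both strands. All 8 held at least 1 TGACG core, which stood in 17.8% of 32851 windows and in at least 1 window of 19.8% of 27025 genes. Fos, Fosb, Junb and Nr4a2 are printed 5′ to 3′ along the gene's own strand, with TGACG or its complement CGTCA in capitals.
Fos, chr12:85473640-85473889, plus strand: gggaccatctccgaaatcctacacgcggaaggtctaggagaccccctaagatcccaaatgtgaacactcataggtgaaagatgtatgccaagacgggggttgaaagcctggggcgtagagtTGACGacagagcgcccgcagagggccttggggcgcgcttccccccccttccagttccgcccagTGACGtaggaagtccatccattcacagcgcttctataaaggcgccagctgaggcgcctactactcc
Fosb, chr7:19310052-19310295, minus strand: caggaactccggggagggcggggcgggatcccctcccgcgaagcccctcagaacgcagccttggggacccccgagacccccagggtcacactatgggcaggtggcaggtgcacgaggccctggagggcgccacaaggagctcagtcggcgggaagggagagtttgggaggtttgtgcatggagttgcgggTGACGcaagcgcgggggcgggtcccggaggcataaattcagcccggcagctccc
Junb, chr8:84978749-84978998, minus strand: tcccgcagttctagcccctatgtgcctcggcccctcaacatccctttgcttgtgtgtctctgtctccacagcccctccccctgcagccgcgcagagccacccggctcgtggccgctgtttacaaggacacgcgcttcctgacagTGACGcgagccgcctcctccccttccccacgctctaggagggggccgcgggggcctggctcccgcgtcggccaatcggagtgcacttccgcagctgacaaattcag
Nr4a2, chr2:57124004-57124253, minus strand: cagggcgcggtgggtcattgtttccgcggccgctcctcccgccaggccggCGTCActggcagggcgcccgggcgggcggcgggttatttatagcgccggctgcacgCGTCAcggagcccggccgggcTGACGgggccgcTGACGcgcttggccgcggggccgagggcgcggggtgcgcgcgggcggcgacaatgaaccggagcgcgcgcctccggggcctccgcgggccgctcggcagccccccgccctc

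Fos held 2 cores and Nr4a2 4, whereas Fosb and Junb held 1 each. The full palindrome TGACGTCA, which contains the core on both strands, was in none of the 8 genes' windows and in 1.55% of all windows. The serum response element's CArG box was found in 1 of the 8 genes, Egr2, and in 1.62% of all genes (1.47% of all windows). The AP-1 site TGANTCA (6.75% of all windows), the EGR site GCGTGGGCG (0.536%) and the NR4A site AAAGGTCA (1.34%) were found in none of the 8. Among other activity-linked genes with a window, the core stood in 13 of 22 other immediate early genes, 7 of 10 late activity response genes, 3 of 13 genes of the upstream signalling path and 3 of 8 partners of the 10 genes. These are letter matches in a short window and not sites shown to be bound.

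Levels are given as CPM, which scale each count to library size with TMM factors, from libraries of 6507923 to 14277395 counts. The 10 genes had 26 to 2182 counts in each library and all passed the filter on low counts with 17812 genes in all. Libraries of a group are numbered only to name them. PDGFA tumour 1 stood apart from the other tumours, with marker levels given below, and ribosomal-RNA-like loci took 35.9% of the count of IDH1_R132H tumour 3 against 0.234% to 0.874% elsewhere. Normal brains 1 and 2 were much alike (chi-square per gene 2.59, against 30.1 and 29.0 for the other pairs), above the sampling noise, and were kept as separate samples. Each of the 10 pan-neuronal markers and of the 7 astrocyte markers had counts in every library, so transcripts of both cell types were in all 12. In such bulk samples, fewer cells of a type and less RNA per cell cannot be told apart.

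PDGFA tumour 1 had the highest level of 9 of the 10 genes among all 12 libraries, and of all 10 among the 9 tumours. Its excess was uneven, from 1.98 times the median of the other 8 tumours for Nr4a3 to 28.8 times for Npas4. Among the other 11 libraries the highest stood at 2.34 times (Junb) to 5.80 times (Fosb) the lowest.

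**Figure D1:**
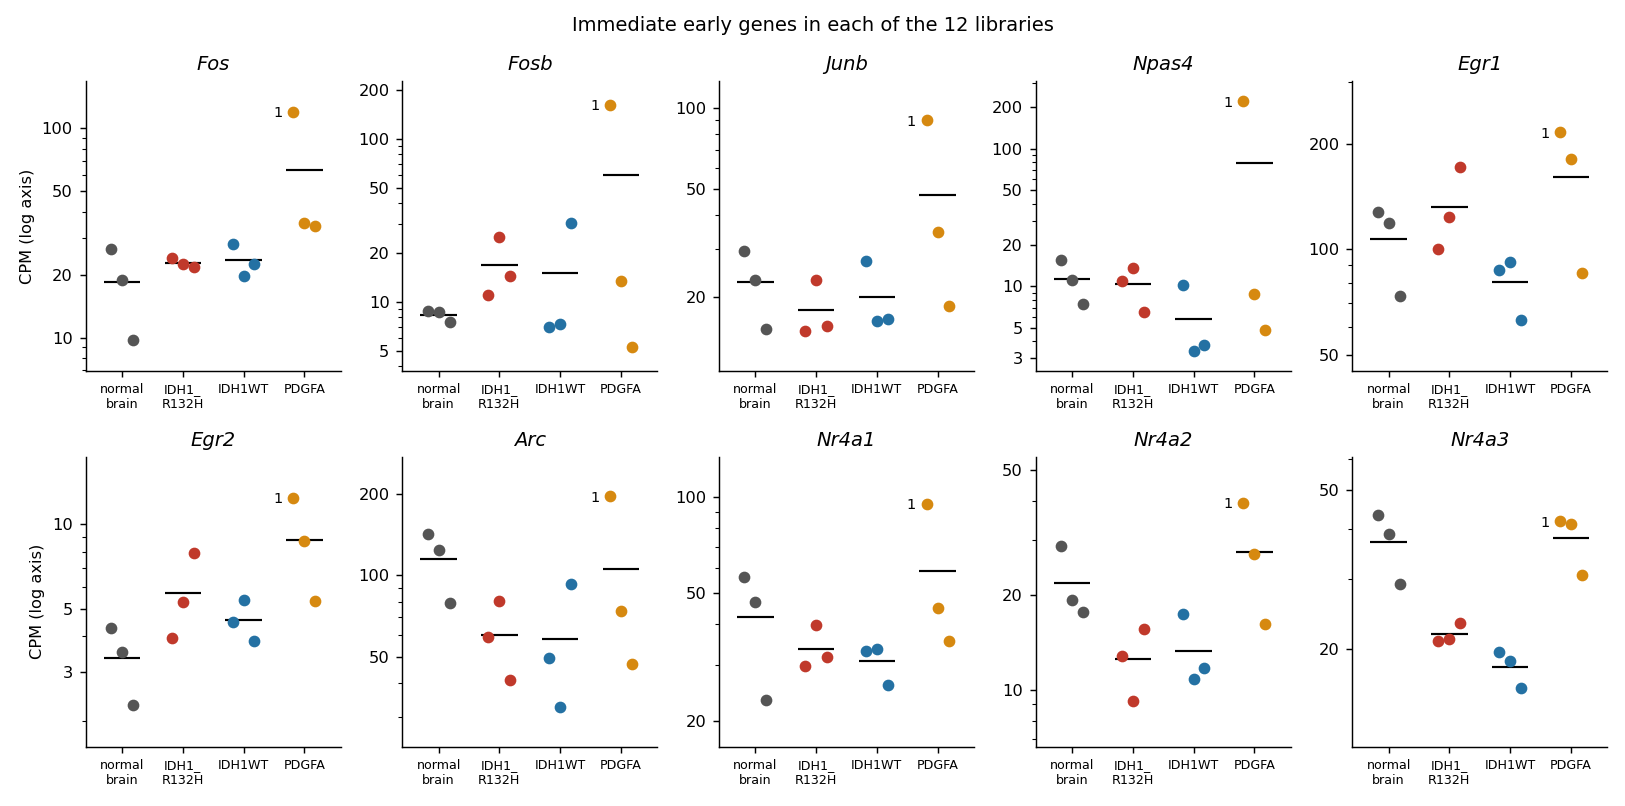
CPM (log axis, with its own range in each panel) of the 10 genes in each of the 12 libraries, as 1 point per library, with a black bar at the mean of each group of 3; the point marked 1 is PDGFA tumour 1. That tumour is the highest point in 9 panels, and for Npas4 it stands at 222 CPM where no other library passes 15.5.

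Fos, Fosb and Junb encode subunits of AP-1, the dimer of a FOS and a JUN protein that carries many activity and growth signals to the genome. Fos (ENSMUSG00000021250, chromosome 12, 85473890 to 85477273) measured 26.4, 18.9 and 9.71 CPM in normal brains 1 to 3. Tumours with IDH1_R132H gave 24.1, 22.4 and 21.7 CPM, those with IDH1WT 28, 19.8 and 22.4, and those with PDGFA 120, 35.1 and 34.3. The 3 PDGFA tumours were the 3 highest libraries for Fos, and 5 of the 6 tumours of the IDH1 groups lay between normal brains 1 and 2, with IDH1WT tumour 1 just above normal brain 1. Fosb (ENSMUSG00000003545, chromosome 7, 19302696 to 19310051), whose truncated product builds up with repeated stimulation of neurons, gave 8.78, 8.67 and 7.44 CPM in normal brains 1 to 3. Among tumours it measured 11, 25 and 14.4 CPM with IDH1_R132H, 7.02, 7.32 and 30.5 with IDH1WT, and 161, 13.3 and 5.26 with PDGFA. For Fosb a single library was high in the IDH1WT group (tumour 3) and in the PDGFA group (tumour 1), while PDGFA tumour 3 was the lowest of all 12.

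Junb (ENSMUSG00000052837, chromosome 8, 84974484 to 84978718) was at 29.4, 23.0 and 15.1 CPM in normal brains 1 to 3. Its tumour levels were 14.9, 23.0 and 15.6 CPM for IDH1_R132H, 27.1, 16.2 and 16.5 for IDH1WT, and 89.8, 34.8 and 18.5 for PDGFA. PDGFA tumours 1 and 2 were above every other library, and the rest overlapped. Junb shares 173 exon bases with Prdx2, an antioxidant enzyme gene on the opposite strand, and the strand setting of the counting is not given in the sources used here, so its level is uncertain. Prdx2 stood between 54.5 and 88.6 CPM in the 12 libraries and at 74.9 in PDGFA tumour 1, inside that range.

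Npas4 (ENSMUSG00000045903, chromosome 19, 4984355 to 4990316) encodes a transcription factor that calcium entry induces almost solely in neurons, where it adjusts inhibitory synapses. It measured 15.5, 11.1 and 7.44 CPM in normal brains 1 to 3. Tumours with IDH1_R132H gave 10.9, 13.6 and 6.51 CPM, those with IDH1WT 10.2, 3.41 and 3.76, and those with PDGFA 222, 8.87 and 4.8. The count behind the outlying value was 1983, against 28 to 154 in the other 11 libraries. Apart from it, all 8 other tumours lay below normal brain 1, and PDGFA tumours 2 and 3 overlapped with both IDH1 groups.

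Egr1 and Egr2 encode zinc finger factors of one family, the former a widely used mark of recently active neurons and the latter also the master regulator of myelination in Schwann cells. Egr1 (ENSMUSG00000038418, chromosome 18, 34859823 to 34864984) gave 128, 119 and 73.5 CPM in normal brains 1 to 3. Among tumours it measured 100.03, 124 and 171 CPM with IDH1_R132H, 86.9, 91.7 and 63.0 with IDH1WT, and 216, 181 and 85.7 with PDGFA. The IDH1WT tumours held the lowest library, and all 3 of them lay below all 3 IDH1_R132H tumours. Egr2 (ENSMUSG00000037868, chromosome 10, 67535475 to 67542188) was at 4.27, 3.51 and 2.28 CPM in normal brains 1 to 3. Its tumour levels were 3.95, 5.29 and 7.89 CPM for IDH1_R132H, 4.51, 5.37 and 3.86 for IDH1WT, and 12.4, 8.70 and 5.35 for PDGFA. Only normal brain 1 reached into the range of the tumours for Egr2.

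Arc (ENSMUSG00000022602, chromosome 15, 74669083 to 74672570) encodes a protein of excitatory synapses that removes AMPA-type glutamate receptors from the surface and whose mRNA travels into dendrites. It measured 142, 123 and 78.7 CPM in normal brains 1 to 3. Tumours with IDH1_R132H gave 59.3, 80.6 and 41.1 CPM, those with IDH1WT 49.4, 32.7 and 92.7, and those with PDGFA 195, 73.9 and 47.1. Unlike Fos, Arc was high in the normal brains, and 8 of the 9 tumours lay below normal brains 1 and 2.

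The 3 NR4A genes encode orphan nuclear receptors that need no known ligand, with Nr4a2 also required for midbrain dopamine neurons. Nr4a1 (ENSMUSG00000023034, chromosome 15, 101254269 to 101274795) gave 56.5, 47.0 and 23.3 CPM in normal brains 1 to 3. Among tumours it measured 29.6, 39.8 and 31.6 CPM with IDH1_R132H, 33.0, 33.7 and 25.9 with IDH1WT, and 95.5, 45.1 and 35.6 with PDGFA. Normal brain 3 held the lowest Nr4a1 level of the 12 libraries, so the normal brains spanned the range of both IDH1 groups. Nr4a2 (ENSMUSG00000026826, chromosome 2, 57106830 to 57124003) was at 28.8, 19.3 and 17.7 CPM in normal brains 1 to 3. Its tumour levels were 12.8, 9.26 and 15.6 CPM for IDH1_R132H, 17.4, 10.9 and 11.8 for IDH1WT, and 39.5, 27.1 and 16.2 for PDGFA. All 6 tumours of the IDH1 groups lay below all 3 normal brains for Nr4a2.

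Nr4a3 (ENSMUSG00000028341, chromosome 4, 48045153 to 48086447) measured 43.3, 38.9 and 29.1 CPM in normal brains 1 to 3. Tumours with IDH1_R132H gave 21, 21.3 and 23.3 CPM, those with IDH1WT 19.7, 18.7 and 16.0, and those with PDGFA 41.8, 41.2 and 30.6. Nr4a3 was the most evenly grouped of the 10: the PDGFA tumours lay within the normal brains' range, the IDH1_R132H tumours below both and the IDH1WT tumours lower again.

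Per kilobase of exon, which allows genes to be compared, Arc (37.6 ± 10.7 CPM per kb, SD, n = 3) and Egr1 (23.8 ± 6.48) led in normal brain, within their spread of each other. Nr4a1 (12 ± 4.87), Junb (9.80 ± 3.11) and Fos (7.80 ± 3.56) followed, and these 3 neighbours did not differ beyond their spread. Nr4a3 (6.2 ± 1.21), Nr4a2 (5.40 ± 1.47) and Npas4 (2.74 ± 0.973) came next, with the first pair of these within their spread, then Fosb (1.33 ± 0.119) and Egr2 (0.987 ± 0.297), again within it. In PDGFA tumour 1 the order was another one: Arc stood at 63.9 CPM per kb, Npas4 at 53.6, Fos at 51.1 and Egr1 at 48.1. Npas4 thus moved from the eighth place in normal brain to the second in that library, and Fosb reached 25.8 CPM per kb.

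To set each tumour on the same footing, its log2 CPM was compared with the mean of the other 8 tumours, gene by gene, over the 17812 genes. Npas4 in PDGFA tumour 1 had the largest excess of all 17812 genes in that library, 4.95 on the log2 scale. Fosb ranked 4 there (3.72), Fos 31 (2.23), Junb 38 (2.16) and Arc 96 (1.79). Nr4a1 (1.49), Nr4a2 (1.44), Egr2 (1.17), Egr1 (1.02) and Nr4a3 (0.86) followed. The median excess of the 10 genes was 1.64 in PDGFA tumour 1 and 0.44 in PDGFA tumour 2. In the other 7 tumours the median lay between -0.61 (IDH1WT tumour 2) and 0.02 (IDH1_R132H tumour 2). In PDGFA tumour 1, 9 of the 10 genes stood above the 95th percentile of all genes' excess and 5 above the 99th, whereas PDGFA tumour 2 had 3 genes above the 95th and IDH1WT tumour 3 had 1, Fosb.

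**Figure D2:**
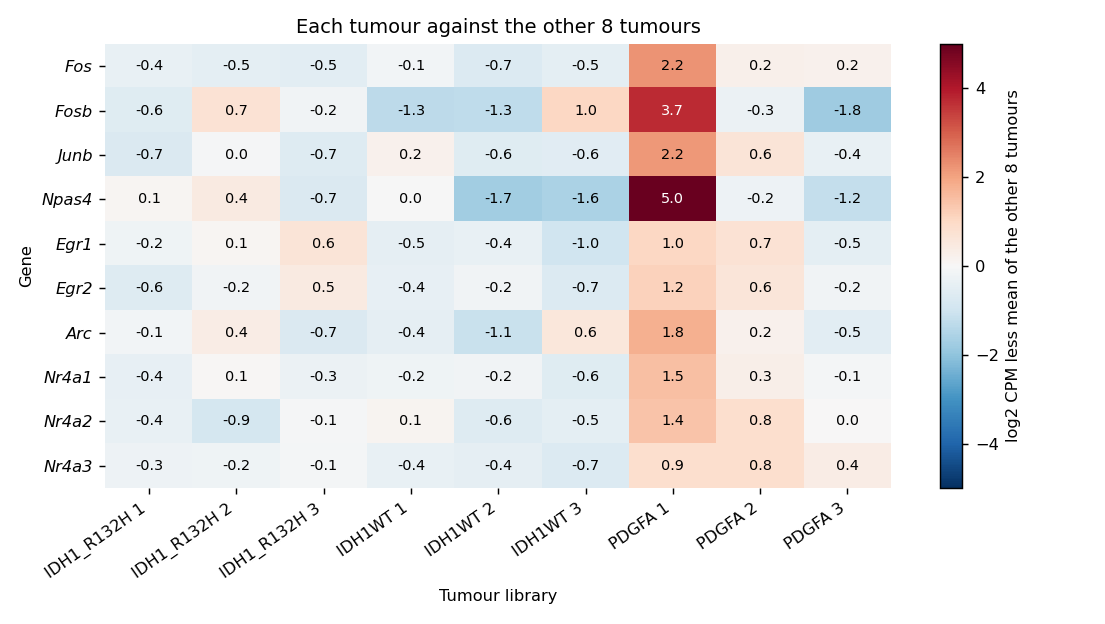
Colour and number give the log2 CPM of each of the 10 genes (rows) in each of the 9 tumours (columns) less the mean of the other 8 tumours. PDGFA tumour 1 is above the others for all 10 genes, from 0.86 for Nr4a3 to 4.95 for Npas4.

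Against the mean of the 3 normal brains, Npas4 ranked 2 of the 17812 genes in PDGFA tumour 1 with a difference of 4.33 on the log2 scale, Fosb 3 (4.25) and Fos 14 (2.81). Nr4a3 differed from normal brain by 0.19 in the same library. In that tumour the AP-1 and Npas4 transcripts were thus further above normal brain than the Nr4a3 transcript was.

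Marker lists of cell types moved with PDGFA tumour 1. Its summed level of 7 striatal neuron markers was 1366 CPM, against 271 to 551 in the other 8 tumours and 388 to 585 in the normal brains. Its 7 myelin markers summed to 10949 CPM, against 2031 to 6033 and 3248 to 3310. Its 10 microglia and macrophage markers summed to 28.4 CPM, against 165 to 362 and 102 to 175, and its 7 astrocyte markers to 937 CPM, against 3261 to 6088 and 4614 to 4786. Its 7 oligodendrocyte precursor markers summed to 280.1 CPM, nearer to the normal brains (171 to 182) than to the other tumours (795 to 4239). Its 7 cycling cell markers summed to 97.6 CPM, below the other tumours (125 to 610.3) and above the normal brains (6.58 to 11.9). Its 6 granule neuron markers summed to 677 CPM, above both (43.8 to 468 and 459.5 to 489.7). Its 10 pan-neuronal markers summed to 7302 CPM, above the other tumours (3300 to 6634) and the normal brains (6164 to 6630). Its 6 inhibitory neuron markers summed to 751 CPM, also above both (283 to 687 and 611 to 688). The 8 excitatory forebrain markers (2724 CPM) stood above the normal brains (2296 to 2505) and within the range of the other tumours (948 to 3078). The 8 heat shock genes (351 CPM) lay among the other tumours (248 to 423). None of these markers was at 0 in any library, and their part in the levels of the 10 genes was not tested.

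**Figure D3:**
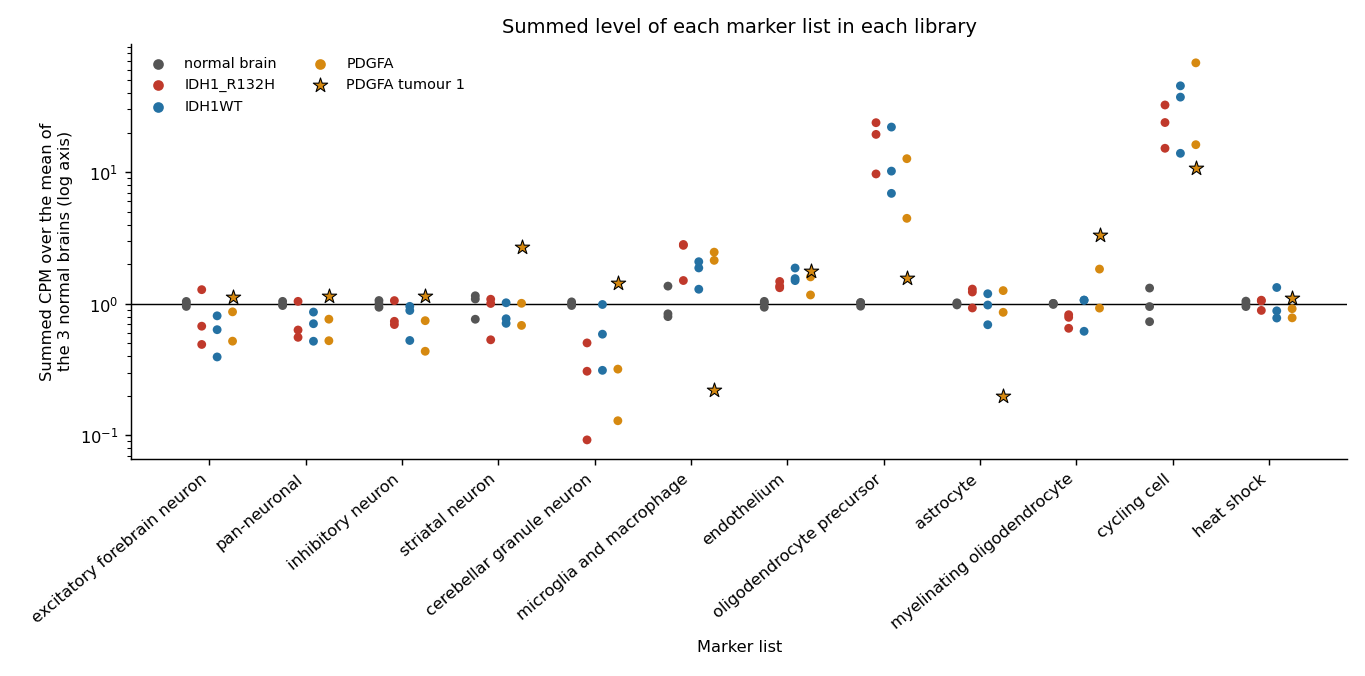
Summed CPM of each marker list in each library, divided by the mean of the 3 normal brains (log axis, line at equality), with 1 point per library and a star for PDGFA tumour 1. The star is the highest point for striatal, pan-neuronal, inhibitory and granule neuron and myelin lists, and the lowest for the microglia and astrocyte lists.

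The comparison of tumours with normal brain used the mean of the 3 tumour groups, each weighed equally. The fitted level of a group follows its mean count, so PDGFA tumour 1 can weigh more than 1 library of 9 where it is high. With edgeR's quasi-likelihood test, 929 of 17812 genes (5.22%) were called at an adjusted p under 0.05, 661 higher and 268 lower in tumours. Of the 10 immediate early genes 1 lay past that threshold, Nr4a3, with a log2 fold change of -0.59 (SE 0.14); this is a description and no test of the gene, since the 10 were chosen with these values known. The log2 fold change was -0.67 (SE 0.38) for Arc, -0.40 (SE 0.26) for Nr4a2 and -0.10 (SE 0.29) for Nr4a1. It was 1.58 (SE 0.89) for Fosb, 0.87 (SE 0.31) for Egr2, 0.82 (SE 0.39) for Fos and 0.59 (SE 0.94) for Npas4, and it was 0.19 (SE 0.38) for Junb and 0.16 (SE 0.27) for Egr1. The 10 genes' median was 0.18, with 6 above 0, and the median of all tested genes was -0.01. None of the 10 had tumours and normal brains that did not overlap, against 7.5% of all genes.

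Without PDGFA tumour 1 2536 of 18816 tested genes (13.5%) were called, Nr4a3 again the only one of the 10 past the threshold, and Npas4 and Junb changed sign. The log2 fold change was then -0.59 (SE 0.36) for Npas4, -0.08 (SE 0.26) for Junb, 0.68 (SE 0.47) for Fosb and 0.53 (SE 0.24) for Fos. It was -0.94 (SE 0.29) for Arc, -0.51 (SE 0.23) for Nr4a2 and -0.62 (SE 0.15) for Nr4a3. The median of the 10 genes was then -0.18. Leaving out a normal brain ended nearly all calls (0, 1 and 3 genes without normal brains 1, 2 and 3), and none was made with normal brains 1 and 2 summed as 1 sample.

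The 3 tumour groups share the normal brains as their reference, so their values are set side by side only. Nr4a3 differed from normal brain by -0.76 (SE 0.19) on the log2 scale in IDH1_R132H tumours, by -1.03 (SE 0.19) in IDH1WT tumours and by 0.03 (SE 0.18) in PDGFA tumours. Nr4a2 differed by -0.81 (SE 0.33), -0.71 (SE 0.33) and 0.33 (SE 0.32) in the same order. Arc differed by -0.92 (SE 0.49), -0.98 (SE 0.49) and -0.12 (SE 0.49), and without PDGFA tumour 1 its value in PDGFA tumours was -0.92 (SE 0.42). Arc thus had nearly the same value in all 3 groups once that tumour was left out, whereas Nr4a3 was at -0.04 (SE 0.20) and Nr4a2 at -0.01 (SE 0.31) in PDGFA tumours 2 and 3. Fosb was above all normal brains in every IDH1_R132H tumour, and Nr4a2 and Nr4a3 below them, in a comparison where 38.2% of all genes had groups that did not overlap. Nr4a2 and Nr4a3 were below in every IDH1WT tumour (31.9% of all genes), and Fos and Egr2 above in every PDGFA tumour (15.8%).

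**Figure D4:**
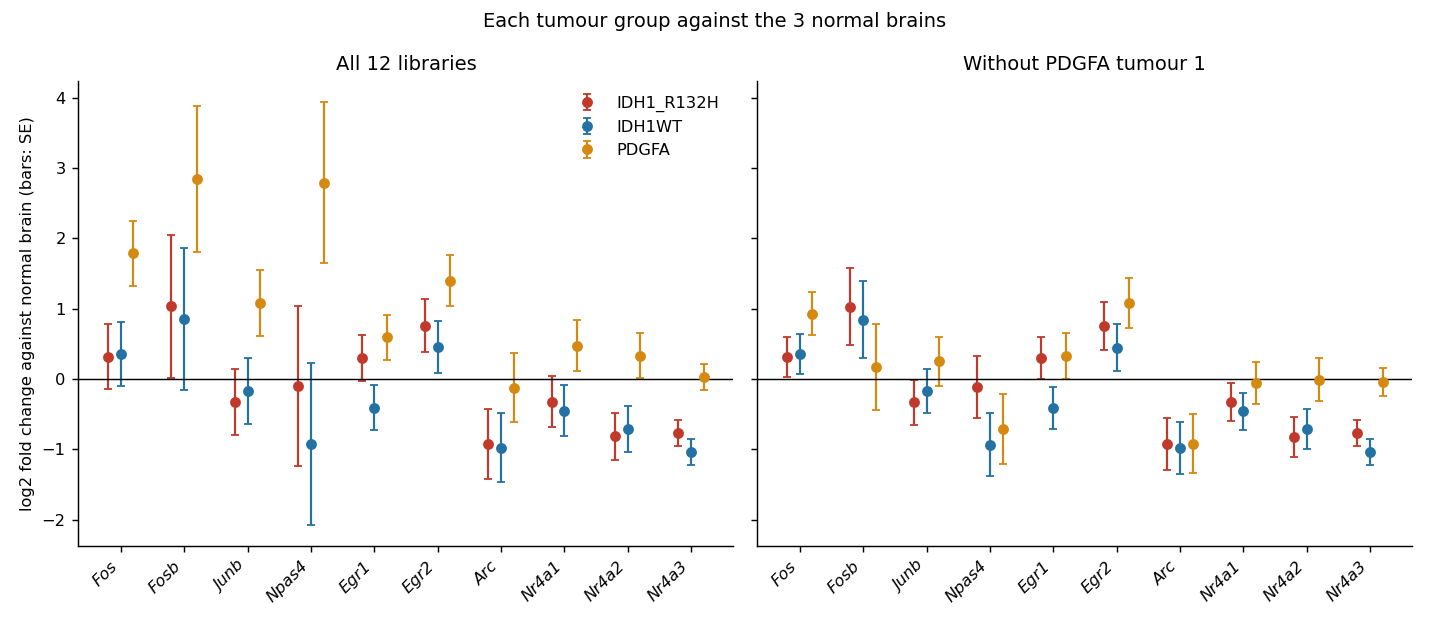
Log2 fold change (bars: SE) of the 10 genes in each tumour group against the 3 normal brains, with all 12 libraries at left and without PDGFA tumour 1 at right. The PDGFA value of Npas4 goes from 2.79 to -0.71 and that of Fosb from 2.85 to 0.18, while Nr4a3 stays near 0 in PDGFA tumours and below it in both IDH1 groups.

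The mutant and the wild-type enzyme were compared in IDH1_R132H against IDH1WT tumours. No gene of the 17812 was called by edgeR (0%), with 475 at an unadjusted p under 0.05, and DESeq2 called none. Egr1 (log2 fold change 0.71, SE 0.33) and Nr4a3 (0.27, SE 0.19) were higher in all 3 IDH1_R132H tumours than in any IDH1WT tumour, where 6.75% of all genes had groups that did not overlap. Npas4 stood at 0.82 (SE 1.2), Egr2 at 0.31 (SE 0.37), Fosb at 0.18 (SE 0.99), Nr4a1 at 0.13 (SE 0.36) and Arc at 0.05 (SE 0.49). Junb (-0.16, SE 0.47), Nr4a2 (-0.11, SE 0.33) and Fos (-0.04, SE 0.45) had negative values. The SEs depend on PDGFA tumour 1, which is in neither group but enters the shared estimate of the spread: without it Npas4 stood at 0.82 (SE 0.45) and Egr1 at 0.71 (SE 0.30).

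All 10 genes had lower means in IDH1_R132H than in PDGFA tumours, with a median log2 fold change of -0.97 against -0.01 over all genes. No gene was called by edgeR (0%), with 1940 at an unadjusted p under 0.05, and DESeq2 called 128. The value was -2.89 (SE 1.2) for Npas4, -1.81 (SE 0.995) for Fosb and -1.47 (SE 0.46) for Fos. Fos, Nr4a2 and Nr4a3 were lower in every IDH1_R132H tumour, against 13.1% of all genes with groups that did not overlap. Without PDGFA tumour 1 the median of the 10 was -0.30, Fosb stood at 0.85 (SE 0.61) and Npas4 at 0.60 (SE 0.50), both turned in sign, and Nr4a2 at -0.81 (SE 0.32) and Nr4a3 at -0.73 (SE 0.20).

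The same held for IDH1WT against PDGFA tumours, where the median of the 10 genes was -1.05 and all 10 values were negative. No gene was called by edgeR (0%), with 1038 at an unadjusted p under 0.05, and DESeq2 called 10. The value was -3.71 (SE 1.2) for Npas4, -1.998 (SE 0.994) for Fosb and -1.06 (SE 0.18) for Nr4a3. Fos, Nr4a1 and Nr4a3 were lower in every IDH1WT tumour, against 8.32% of all genes. Without PDGFA tumour 1 the median was -0.50 and Fosb turned to 0.67 (SE 0.61). Npas4 kept its sign but stood at -0.22 (SE 0.50), and Nr4a3 stood at -1.001 (SE 0.20). These 2 comparisons share the PDGFA tumours.

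The 10 genes varied together across libraries, less so once PDGFA tumour 1 was left out. Over the 12 libraries all 45 pairs had a positive Pearson correlation of log2 CPM, with a median of 0.66 (Spearman 0.50). Without PDGFA tumour 1 the median was 0.42 (Spearman 0.35), and 38 of the 45 were positive. Nr4a2 with Nr4a3 (0.86, and 0.85 without that tumour) and Junb with Nr4a1 (0.91 and 0.78) were the highest pairs without it, whereas Fosb with Fos went from 0.70 to 0.02 and Egr2 with Arc from 0.09 to -0.42. The libraries share tissue source and depth effects, so these are descriptions.

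Outside the 10, the genes whose levels over the 12 libraries were most like their mean were Prr18 (r = 0.94), Cep131 (0.93), Pde10a (0.92), Strn (0.92) and Egr4 (0.89), of 10116 genes compared. Without PDGFA tumour 1 these values fell to between 0.66 and 0.72. Pde10a is a phosphodiesterase of striatal neurons and belongs to the striatal list above; it stood at 640 CPM in PDGFA tumour 1 and at 139 to 285 elsewhere. Egr4, an EGR factor, stood at 43.9 CPM in PDGFA tumour 1 and at 4.89 to 13.7 elsewhere.

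Of 30 other immediate early genes, written down as a list with earlier results of these data known, 29 were tested (Fosl1 did not pass the filter). In tumours against normal brain 6 were called higher and none lower, where 5.22% of all genes were called in either direction. Of the 29, 22 had fold changes above 0 and 7 below, with a median log2 fold change of 0.32. The 6 were Ccn1, Jun, Myc, Trib1, Atf3 and Maff, and none of the 6 is among the 10 genes above. Jun, the main partner of FOS proteins in AP-1, rose from 33.7 ± 3.52 CPM (SD, n = 3) in normal brain to 52.8 ± 5.58 (n = 9) in tumours (log2 fold change 0.64, SE 0.12, edgeR adjusted p = 0.017). Myc, the growth regulator, rose from 1.76 ± 0.256 to 7.96 ± 3.91 CPM (2.15, SE 0.44, edgeR adjusted p = 0.022). Trib1, a pseudokinase, rose from 16.5 ± 3.76 to 55.5 ± 21.9 CPM (1.71, SE 0.36, edgeR adjusted p = 0.025), and Ccn1, a secreted matrix protein, from 4.33 ± 2.0 to 14.2 ± 3.81 CPM (1.71, SE 0.31, edgeR adjusted p = 0.017). Atf3, a stress-induced factor, and Maff, a small MAF factor, rose by 1.64 (SE 0.40, edgeR adjusted p = 0.038) and 1.66 (SE 0.43, edgeR adjusted p = 0.046). Without normal brain 1, 2 or 3 none of the 6 was called. The 6 come from a list chosen with earlier results known, so their p-values are given as a description.

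In PDGFA tumour 1 the other immediate early genes split. Egr4 (2.54 above the mean of the other 8 tumours on the log2 scale), Gadd45g (2.38), Btg2 (1.69) and Dusp1 (1.61) stood above the 99th percentile of all genes. Trib1 (-1.87), Cebpd (-1.77), Maff (-1.47) and Myc (-0.94) stood below the other tumours. Gadd45g, Btg2, Dusp1 and Cebpd were named after their values were seen. The list's median there was 0.21, against 1.64 for the 10 genes.

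The list named late activity response gave no call among 15 tested in tumours against normal brain (median 0.08). That name is a label of the list, and the timing of each gene's response was not tested. Of all genes 5.22% were called there. DESeq2 called 1, and 3 had an unadjusted p under 0.05. Plk2, a kinase that weakens synapses, stood at 0.56 (SE 0.18, edgeR adjusted p = 0.084) and Pcsk1, a prohormone convertase, at -0.81 (SE 0.27, edgeR adjusted p = 0.092). Syt4 stood at -0.63 (SE 0.26), Homer1 at -0.39 (SE 0.23), Ptgs2 at 0.88 (SE 0.58) and Pim1 at 0.43 (SE 0.31), with edgeR adjusted p-values of 0.17 to 0.43. In PDGFA tumour 1 the median of the 15 was 0.81 above the other tumours, with 13 of 15 above and 2, Ptgs2 and Rgs2 (the latter named after its value was seen), past the 99th percentile. It was 0.50 in IDH1_R132H tumour 2, with 4 past the 99th percentile, so for these genes PDGFA tumour 1 stood less alone.

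Of 17 genes of the upstream path from glutamate receptors to CREB, ELK and MEF2 factors, 1 was called, near the 5.22% of all genes called there. It was Elk4, a serum response factor partner, which rose from 47.6 ± 4.69 to 91.0 ± 20.4 CPM (0.93, SE 0.20, edgeR adjusted p = 0.026). The call was lost without each normal brain. Of the 17, 15 had negative fold changes, with a median of -0.26. Camkk2 stood at -0.75 (SE 0.22), Crtc1 at -0.50 (SE 0.15), Rps6ka2 at -0.59 (SE 0.19), Grin2a at -0.65 (SE 0.24) and Camk4 at -0.48 (SE 0.33), with edgeR adjusted p-values of 0.060 to 0.41. Without PDGFA tumour 1, Camkk2, a kinase of the calmodulin cascade, Crtc1, a coactivator of CREB, and Rps6ka2, a kinase under ERK, were called lower. In that setting 13.5% of all genes were called. In the fit to all 12 libraries, the 10 pan-neuronal markers had a median of -0.42 and none was called. Their part in the values of the 17 genes was not tested. In the same fit, where 5.22% of all genes were called, none of the 8 partners and co-regulators (Jund, Nab1, Nab2, Arnt, Arnt2 and the retinoid X receptors) was called. None had an unadjusted p under 0.05, and DESeq2 called none of them.

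**Figure D5:**
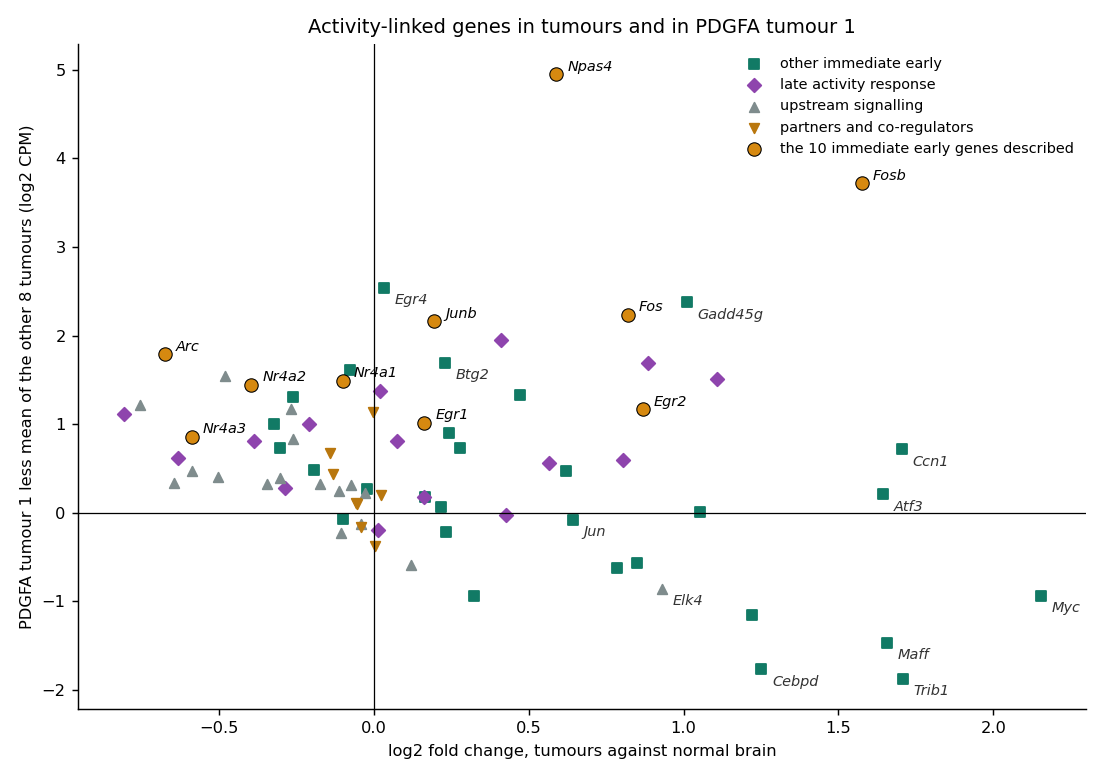
Each point is a gene: the log2 fold change of tumours against normal brain (horizontal) and the log2 CPM of PDGFA tumour 1 less the mean of the other 8 tumours (vertical), for the 10 genes described (circles) and 4 other activity-linked lists. All 10 circles lie above 0 on the vertical axis, with Npas4 at 4.95, while Myc, Maff and Trib1 are high in tumours and below 0 in PDGFA tumour 1.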

How the data were processed

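The tissue was fixed in formalin and embedded in paraffin, and, per the labels' protocols, RNA was isolated with the RecoverAll kit. The authors' deposited table holds raw read counts per Ensembl gene, made on GRCm38 with STAR 2.5.2b, Subread and featureCounts 1.5.1 per the submitters' processing notes, which also name DESeq2 1.16.1. No annotation, strand setting or handling of multi-mapped reads is given in the sources used here. The authors' second deposited table holds log2 values (regularized log by its name) for 23792 genes and was used only as an alternative.

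Symbols came from GENCODE release M21, which named 49412 of 49671 genes, and promoters from RefSeq on GRCm38.p6. In R 4.3.3, edgeR 4.0.16 kept 17812 genes with filterByExpr (minimum count 10, minimum total 15), scaled libraries with TMM and fitted a robust quasi-likelihood model with 1 coefficient per group to the 12 libraries (8 residual degrees of freedom; common biological coefficient of variation 26.5%). A gene was called where its p, adjusted over all tested genes by Benjamini-Hochberg, was under 0.05. Log2 CPM used a prior count of 2. TMM sets the median gene near no change. The fit was tested on simulated data that held no outlying library and no pair of samples much alike. That test does not bear on PDGFA tumour 1 or on normal brains 1 and 2.

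Named genes are the 10 genes, the 6 genes of each of 4 other activity lists with the smallest p in tumours against normal brain, and the 5 genes most correlated with the mean of the 10 over 12 libraries (mean log2 CPM of at least 3). Rgs2, Gadd45g, Btg2, Dusp1 and Cebpd fall outside this rule and were named after their values were seen. The 10 genes and all lists were chosen with earlier results of these data known, so calls and p-values of list genes are a description. A marker gene, Dlx6os1, had 2 identifiers and was not used, and Ccn1 was matched by its older symbol Cyr61. A further floxed allele of these mice is not reported here. Alternatives were RLE size factors, no low count filter, DESeq2 1.42.0, limma 3.58.1 on the deposited log2 values, no ribosomal-RNA-like loci, each library left out in turn, IDH1_R132H tumour 3 and PDGFA tumour 1 left out together and, chosen after seeing the data, normal brains 1 and 2 summed as 1 sample.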

Additional observations from a re-analysis of the deposited data

Results flagged for a closer look

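For 8 of 34 gene levels examined, 1 of the 9 tumours stood apart by a gap past Dixon's 95% critical value for 9 samples. About 1 group in 20 passes it by chance, for like samples and genes not chosen by their values. In 7 of the 8 the tumour was PDGFA tumour 1, above the others. Npas4 stood there at 222 CPM against 13.6 in the next highest tumour, Fosb at 161 against 30.5, Fos at 120 against 35.1, Junb at 89.8 against 34.8, Arc at 195 against 92.7 and Nr4a1 at 95.5 against 45.1. Camkk2, the calmodulin-dependent kinase kinase, stood at 303 CPM in the same tumour against 192. Myc was set apart in PDGFA tumour 3, at 17.4 CPM against 9.03 in the next highest tumour. Of the 8, 6 concern the 10 immediate early genes, which were chosen with their values known. Camkk2 and Myc come from lists chosen with earlier results known and were named by their small p. For all 8 the gap is therefore a description and the chance rate does not apply. The 7 gaps of PDGFA tumour 1 come from 1 library and are not independent of each other. Egr1, Egr2, Nr4a2 and Nr4a3 were also highest in that tumour but had no such gap.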

How the results depend on the processing

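For tumours against normal brain, the count of called genes was 929; it was 2204 with no low count filter, 1993 with DESeq2, 2928 without IDH1_R132H tumour 3 and PDGFA tumour 1 together, and 0 with normal brains 1 and 2 summed. Leaving out 1 library gave 0 (normal brain 1) to 2536 (PDGFA tumour 1), and 367 and 598 without IDH1_R132H tumour 2 and IDH1WT tumour 3. For IDH1_R132H against IDH1WT tumours, no low count filter gave 79 calls, and leaving out 1 library gave 0. For IDH1_R132H against PDGFA tumours the count was 627 with no filter, 128 with DESeq2, 1 with limma, 1 without both doubted tumours and 0 to 43 without 1 library (43 without PDGFA tumour 3). For IDH1WT against PDGFA tumours it was 261 with no filter, 10 with DESeq2, 3 without both tumours and 0 to 1 without 1 library. The other immediate early genes gave 12 calls with no filter, 11 with DESeq2, 10 without both tumours, 0 with normal brains 1 and 2 summed and 0 to 9 without 1 library. The late activity response genes gave 4 with no filter, 1 with DESeq2, 2 without both tumours and 0 to 1 without 1 library. The cause of these shifts was not tested.

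Of 760 alternative fold changes of the 10 genes, 727 moved by less than the SD within groups, 26 moved by more with the same sign and 7 by more with the sign turned. These 7 all left out PDGFA tumour 1. The SD was pooled within groups over all 12 libraries with that tumour included, which widens it for genes where that tumour stands apart. For Npas4 against normal brain, the turn from 0.59 to -0.59 without that tumour lay within the SD. Counting turns within the SD too, 26 values changed sign, 15 of them with PDGFA tumour 1 kept: in IDH1_R132H against IDH1WT tumours (Fos, Fosb, Junb, Arc, Nr4a1 and Nr4a2) without 1 of those tumours, and against normal brain without normal brain 3 (Egr1 and Junb), without normal brain 1 or with brains 1 and 2 summed (Nr4a1). Against PDGFA tumours, IDH1_R132H without both tumours gave 0.94 for Fosb, 0.83 for Npas4 and 0.20 for Arc, and IDH1WT gave 0.66 for Fosb. Without 1 library, IDH1_R132H against PDGFA ranged from -2.36 to 0.85 for Fosb and from -3.46 to 0.60 for Npas4, and IDH1WT against PDGFA from -3.08 to 0.67 for Fosb. Of 456 alternative values of the named list genes, 391 kept their side of the threshold, 41 lost the call and 24 gained one. No paired analysis was possible because the labels give the samples no shared numbers. With 26 to 111 counts per library, Egr2 was the least deeply counted of the 10.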
